A study of Mus musculus with 8 samples.

Results

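The D cyclins, their kinases and the inhibitors of those kinases were described in mouse T-cell progenitors with and without CRISPR guides against both STAT5 genes. The set was defined by symbol as Ccnd1, Ccnd2, Ccnd3, Cdk4, Cdk6, Cdkn1a, Cdkn1b, Cdkn2c, Cdkn2d and Rb1, which are 10 of the 24506 genes counted. All 10 were among the 13775 genes that passed the filter on low counts. The RNA came from 4 groups of 2 libraries. These were late sgStat5, late control, early sgStat5 and early control. The early cells were CD25-positive and negative for the Bcl11b-mCherry reporter (labelled pre-commitment), and the late cells were CD25-positive and mCherry-positive (post-commitment), although the series text also calls the late gate reporter negative. All groups came from bone-marrow progenitors of B6.CRISPR-Cas9;Bcl2;Bcl11b-mCherry/mCherry mice, so controls too carried Cas9, the reporter and the Bcl2 transgene, which keeps cells alive. The sgStat5 cells received 3 guides each against Stat5a and Stat5b by retrovirus and the control cells control guides of unstated target. Both were grown for 6 days on OP9-DLL1 stroma, whose DLL1 activates Notch, with 10 ng/ml of IL-7 and of Flt3l. The age of the animals and any pooling are not stated in the labels, and each sgStat5 library is a mixed population of edited cells, not a clone.

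Cells decide in the first gap phase whether to copy their DNA. Cytokine and growth signals raise a D cyclin, which binds CDK4 or CDK6 and phosphorylates the retinoblastoma protein RB1, and this releases the E2F factors that switch on DNA replication genes. INK4 inhibitors such as p18 (Cdkn2c) and p19 (Cdkn2d) bind CDK4 and CDK6 directly, whereas the CIP/KIP inhibitors p21 (Cdkn1a) and p27 (Cdkn1b) bind cyclin-CDK complexes. In lymphoid progenitors STAT5 carries the IL-7 signal, and Ccnd2 is a known STAT5 target.

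Total counts per library were 22146490 to 31209177. Levels are given as CPM, counts scaled to library size, and between genes as FPKM, which also divides by transcript length. Stat5a stood at 105 to 116 CPM in the 4 sgStat5 libraries and at 238 to 258 CPM in the 4 control libraries, and Stat5b at 133 to 154 CPM and 249 to 280 CPM in the same order of groups. Bcl11b, the gene of the sort reporter, had 797 and 415 CPM in late sgStat5 libraries and 542 and 219 CPM in late controls. It had 132 and 70.1 CPM in early sgStat5 libraries and 132 and 45.6 CPM in early controls, so every late library lay above every early one. In every group replicate 2 had Xist at 1388 CPM or more and replicate 1 at 0.359 CPM or less, and replicates of the same number deviated from their group means together. A second fit therefore held the replicate number as a block (the blocked fit). T-progenitor genes such as Cd3g, Tcf7 and Gata3 were detected in all libraries. Summed over 10 markers, late sgStat5 libraries had 7156 and 5972 CPM, late controls 8567 and 6457, early sgStat5 libraries 4828 and 4579, and early controls 6211 and 5324. The CD25 gene Il2ra alone gave 1374 and 1886, 2948 and 3075, 1980 and 2155, and 3152 and 2887 CPM in the same order. The lower sums in sgStat5 followed this gene in large part and do not describe the 10 markers as a set. Against the same-numbered control, 4 of the 10 (Tcf7, Gata3, Notch1 and Rag1) were higher in sgStat5 in all 4 pairs. Another 2, Thy1 and the CD25 gene Il2ra, were lower in all 4. In bulk RNA, fewer expressing cells and less RNA per cell cannot be told apart.

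Per length, Cdk4 was the most abundant of the 10 genes in every group, at 201 to 244 FPKM, followed by Ccnd3 at 101 to 113 FPKM, Cdk6 at 56.4 to 70.6 FPKM and Ccnd2 at 31.9 to 51.7 FPKM. These are group means over 2 libraries. The 4 inhibitors lay between 10.4 and 31.4 FPKM and Rb1 between 5.81 and 7.47 FPKM. Ccnd1 was the lowest of the 10 in every group except early sgStat5, where it averaged 6.24 ± 0.0389 FPKM beside 6.19 ± 1.49 FPKM for Rb1 (SD, n = 2 each), a gap within the spread of Rb1.

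**Figure D1:**
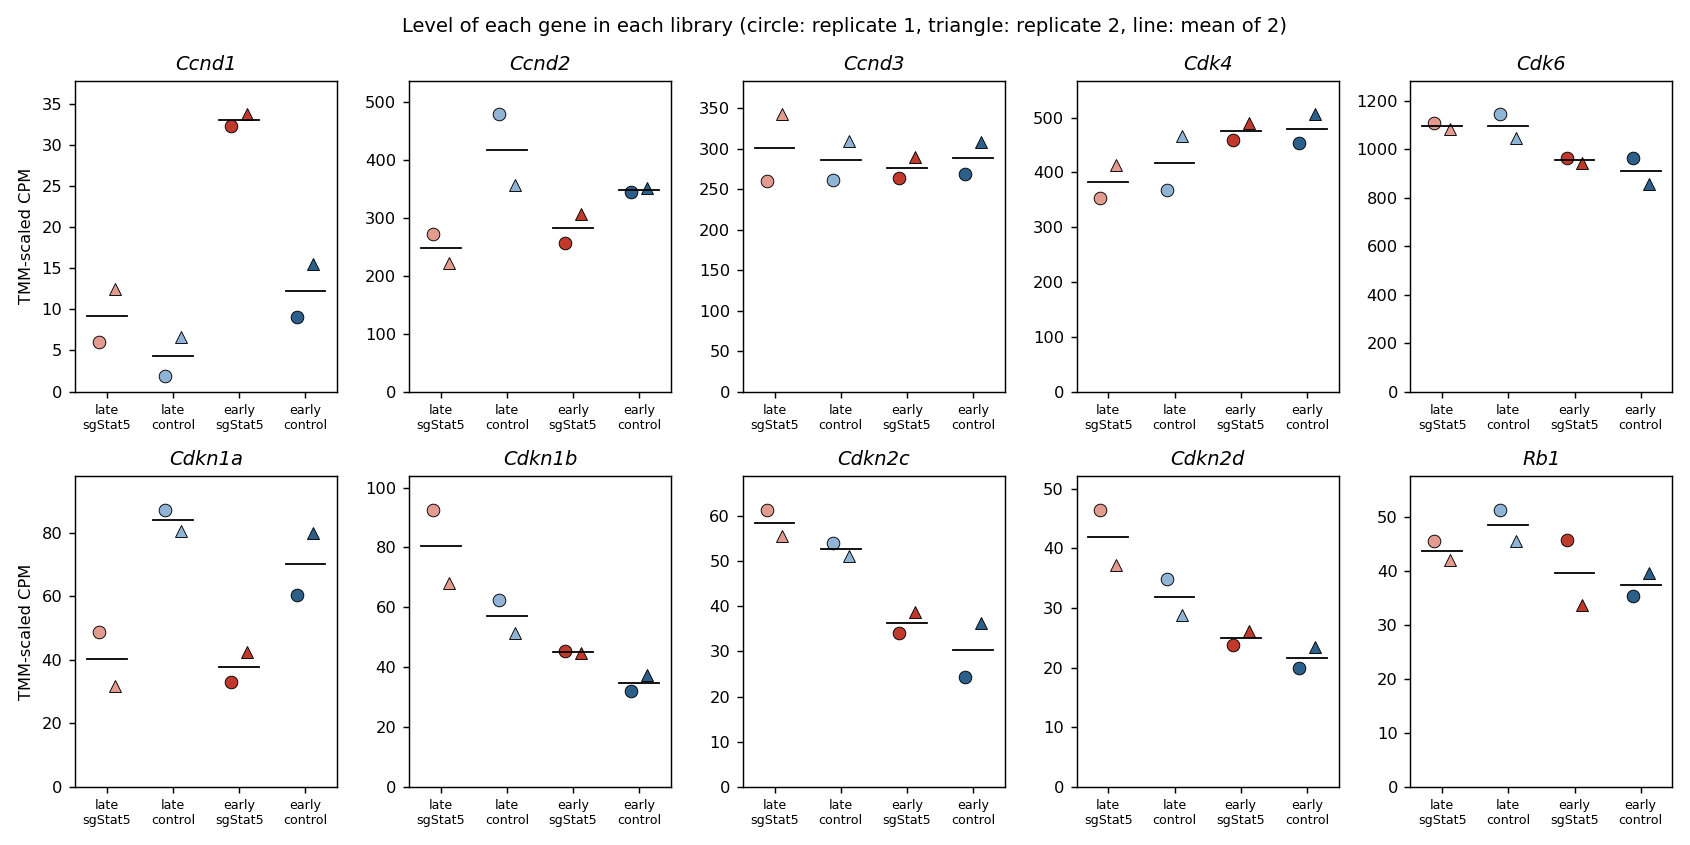
Level of each of the 10 genes in CPM (vertical axes) in the 8 libraries, with 1 point per library and the group mean as a line, in late sgStat5, late control, early sgStat5 and early control cells from left to right. Ccnd1 is highest in the 2 early sgStat5 libraries, Cdkn1a is lower in sgStat5 than in control libraries in both gates, and Ccnd3 overlaps between all groups.

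For sgStat5 against control, Cdkn1a and Ccnd2 had the lowest log2 fold changes of the 10 genes in both gates and Ccnd1 the highest, while Ccnd3, Cdk4, Cdk6 and Rb1 lay within 0.15 of 0. With edgeR's quasi-likelihood test without the block, 0 of the 10 genes passed an adjusted p of 0.05 in any of the 5 comparisons. In the late gate 1.71% of all tested genes passed for sgStat5 against control, and in the early gate 0.269%. At an unadjusted p under 0.05 the same fit had 3 of the 10 genes in the late gate, beside 1713 of all genes, and 2 in the early gate, beside 887. The blocked fit called 2 of the 10 in the late gate (Ccnd2 and Cdkn1a, both lower), where it called 8.22% of all genes, and 1 in the early gate (Ccnd1, higher), where it called 2.33%. DESeq2 called 2 (Ccnd2 and Cdkn1a) in the late and 1 (Cdkn1a) in the early gate, beside 629 and 247 of all genes. Limma on the FPKM values called 0 of the 10 in both gates. Of all genes it called 193 to 228 in the late and 25 to 30 in the early gate. The median log2 fold change over the 10 genes was 0.04 in the late gate and 0.08 in the early gate, beside -0.02 and -0.00 for all tested genes. Groups of 2 libraries often separate without overlap where nothing differs, so separation is given below as a description and not as a test.

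Ccnd2 encodes cyclin D2, the D cyclin that cytokines induce in many lymphoid cells, and lies at chr6:127125709-127151048 on the minus strand (mm10). In the late gate it had 273 and 223 CPM in sgStat5 libraries, against 479 and 357 CPM in control libraries (replicates 1 and 2). The sgStat5 values were both under the lower control value. The log2 fold change was -0.76 ± 0.17 (SE; edgeR adjusted p = 0.103), and with the block -0.75 ± 0.14 (adjusted p = 0.0126), so Ccnd2 passed with the block and not without it. It also passed without the block in DESeq2 (adjusted p = 0.000696) and in edgeR without the filter on low counts (0.0221). In the early gate it had 256 and 308 CPM in sgStat5 libraries, against 346 and 352 CPM in controls. The early groups did not overlap either, and the log2 fold change of -0.31 ± 0.17 did not pass (adjusted p = 0.891, and 0.433 with the block).

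Ccnd3 encodes cyclin D3, the D cyclin that immature T cells need to expand, and lies at chr17:47593467-47599688 on the plus strand. It had 260 and 342 CPM in late sgStat5 libraries, against 262 and 309 CPM in late controls, and 264 and 289 CPM in early sgStat5 libraries, against 269 and 309 CPM in early controls. All groups overlapped. The log2 fold change was 0.08 in the late gate (95% interval -0.28 to 0.44) and -0.06 in the early gate (95% interval -0.43 to 0.30). The intervals leave room for changes of either sign, so a difference was not detectable at this spread.

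Ccnd1 encodes cyclin D1, which most haematopoietic cells carry at low levels, and lies at chr7:144929931-144939925 on the minus strand. In the early gate it had 32.2 and 33.7 CPM in sgStat5 libraries, against 9.09 and 15.5 CPM in controls. Both sgStat5 libraries stood above both controls. The log2 fold change was 1.42 ± 0.58 (edgeR adjusted p = 0.743), and with the block 1.52 ± 0.32 (adjusted p = 0.0431). In the late gate it had 6.01 and 12.4 CPM in sgStat5 libraries, against 1.91 and 6.68 CPM in controls. Here the groups overlapped, while within each replicate number the sgStat5 library was the higher, by 1.65 and 0.90 on the log2 scale. The late log2 fold change was 1.10 ± 0.59 (adjusted p = 0.524, and 0.0747 with the block).

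The raw counts behind Ccnd1 ran from 50 to 912, and 1100 of the 3740 exon bases of its GENCODE transcript overlap LTO1 (Oraov1 in the count table) on the other strand. The library kit does not keep the strand, so reads there cannot be assigned between the genes. Oraov1 itself had 10.7 to 15.6 CPM in all 8 libraries, including late control replicate 1, where Ccnd1 had 1.91 CPM. Ccnd3 shares 359 exon bases with Bysl and Cdk4 641 with Tspan31 in the same way, Ccnd2, Cdk6, Cdkn1a and Rb1 share 93 to 372 with opposite-strand genes, and Cdkn1b, Cdkn2c and Cdkn2d share none.

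Cells of other types were measured by their markers beside Ccnd1. Of the 14 stromal markers Pdgfrb did not follow the others, at 69.4 to 110 CPM in every library. Summed over the other 13, late sgStat5 libraries had 204 and 644 CPM, late controls 154 and 696, early sgStat5 libraries 6.38 and 330, and early controls 46.7 and 397. This sum was higher in replicate 2 of every group and in the late gate in all 4 pairs, and did not separate sgStat5 from control. Ccnd1 too was higher in replicate 2 of every group, whereas it was lower in the late gate. In early sgStat5 replicate 1, Col1a1 was at 0 counts and 12 of the 14 markers were under 1 CPM, and Ccnd1 stood at 32.2 CPM in that library. The part of stromal RNA in the values of Ccnd1 and in the gate differences was not tested.

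Summed over 10 myeloid markers, late sgStat5 libraries had 32.4 and 60.6 CPM, late controls 29.3 and 73.9, early sgStat5 libraries 206 and 185, and early controls 174 and 199. The myeloid sum was lower in the late gate, as Ccnd1 was. Between the arms its members diverged. Against the same-numbered control, 4 of the 10 (Mpo, Itgam, Csf1r and Tyrobp) were higher in sgStat5 in all 4 pairs, as Ccnd1 was, and 3 (Fcer1g, Cd68 and Adgre1) were lower in all 4. Mpo, a granule enzyme of myeloid progenitors, had 0.530 and 6.20 CPM in late sgStat5 libraries, against 0.0383 and 2.32 CPM in late controls, and 55.8 and 32.1 CPM in early sgStat5 libraries, against 21.7 and 17.8 CPM in early controls. The median log2 fold change of the 8 myeloid markers tested was 0.52 in the late and 0.44 in the early gate, beside -0.02 and -0.00 for all genes, and 0 of the 8 passed in either fit. The part of myeloid RNA in the values of Ccnd1 was not tested. The 6 mast cell and basophil markers were carried by Cpa3, at 494 and 324 CPM in late sgStat5, 315 and 233 in late control, 742 and 353 in early sgStat5 and 639 and 291 in early control libraries, higher in sgStat5 in all 4 pairs. Mcpt8 and Gata2, the latter at most 1.74 CPM, were lower in sgStat5 in all 4 pairs. Fcer1a had at most 0.0321 CPM, and the median of the 4 tested markers was -0.11 in the late and -0.23 in the early gate. The 6 B-cell markers in the table summed to at most 17.0 CPM.

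**Figure D2:**
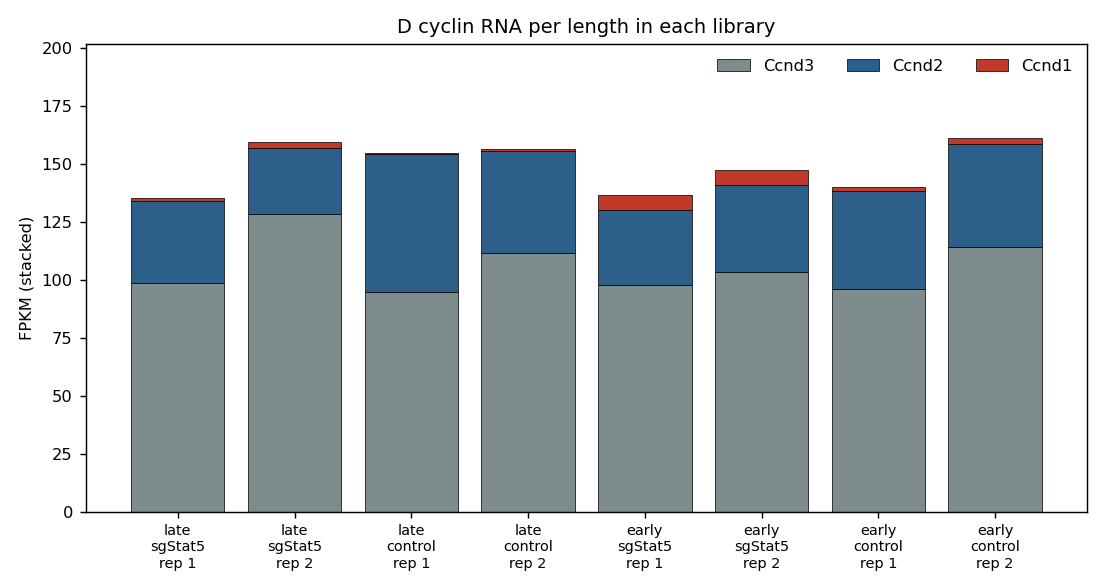
Deposited FPKM of Ccnd1, Ccnd2 and Ccnd3 stacked in each of the 8 libraries (vertical axis from 0), ordered late sgStat5, late control, early sgStat5, early control. The totals run from 135 to 161 FPKM, with Ccnd3 as the largest piece and Ccnd1 as a thin one.

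Summed per length, the 3 D cyclins had 147 ± 17.1 FPKM in late sgStat5 and 156 ± 1.40 FPKM in late control cells, and 142 ± 7.69 FPKM in early sgStat5 and 151 ± 15.2 FPKM in early control cells (SD, n = 2 each). The sgStat5 and control libraries overlapped in this sum in both gates. Ccnd3 made up 76.8 ± 5.37% of the sum in late sgStat5 and 66.2 ± 6.91% in late control cells, and Ccnd2 22.0 ± 5.83% and 33.3 ± 7.31%. In the early gate Ccnd3 made up 70.9 ± 1.03% in sgStat5 and 69.6 ± 1.42% in control cells, Ccnd2 24.7 ± 1.24% and 28.9 ± 1.87%, and Ccnd1 4.41 ± 0.211% and 1.52 ± 0.447%. So Ccnd1 remained a small share of D-cyclin RNA also where it was highest. With 2 libraries against 2, an exact permutation test cannot pass 0.05, and no test was made of these shares.

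The kinases carry the catalytic activity that D cyclins switch on. Cdk4 (chr10:127063535-127067288, plus strand) had 352 and 413 CPM in late sgStat5 libraries, against 368 and 465 CPM in late controls, and 459 and 490 CPM in early sgStat5 libraries, against 453 and 506 CPM in early controls. Cdk6 (chr5:3343893-3531005, plus strand) had 1107 and 1082 CPM in late sgStat5 libraries, against 1144 and 1045 CPM in late controls, and 963 and 945 CPM in early sgStat5 libraries, against 963 and 854 CPM in early controls. The sgStat5 and control libraries overlapped for both kinases in both gates. For Cdk4 the log2 fold change was -0.12 (95% interval -0.45 to 0.20) in the late gate and -0.01 (-0.34 to 0.31) in the early gate. For Cdk6 it was -0.00 (-0.20 to 0.20) in the late gate and 0.07 (-0.13 to 0.27) in the early gate, so changes of more than about 0.27 either way lie outside the intervals of Cdk6.

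The promoter windows of both kinases are shown because they hold matches to the E-box, the site bound by MYC-family factors. Windows are from RefSeq (GRCm38.p6) and run from 250 bases before to 50 after the start, written 5′ to 3′ on the plus strand, with CACGTG in capitals. Cdk4 holds 4 copies, at -172, -118, -98 and -11 from the start, and Cdk6 holds 1 at -220. Of all 32851 windows of this length, 7.15% hold CACGTG.
Cdk4 chr10:127063285-127063584: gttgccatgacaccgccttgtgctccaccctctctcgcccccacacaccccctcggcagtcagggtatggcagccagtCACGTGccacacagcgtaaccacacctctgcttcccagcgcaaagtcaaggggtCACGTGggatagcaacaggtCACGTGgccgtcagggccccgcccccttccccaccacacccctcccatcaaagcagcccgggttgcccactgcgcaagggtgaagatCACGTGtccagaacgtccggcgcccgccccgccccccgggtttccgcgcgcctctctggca
Cdk6 chr5:3343643-3343942: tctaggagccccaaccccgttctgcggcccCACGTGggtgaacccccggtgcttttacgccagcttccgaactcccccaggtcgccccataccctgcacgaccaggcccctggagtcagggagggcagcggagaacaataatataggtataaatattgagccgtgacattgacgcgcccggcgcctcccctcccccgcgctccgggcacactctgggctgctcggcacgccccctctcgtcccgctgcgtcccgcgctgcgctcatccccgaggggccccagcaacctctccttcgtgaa

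A match is a description of letters and not of binding. Beside these windows, Myc had a log2 fold change of 0.16 ± 0.16 in the late gate and 0.03 ± 0.16 in the early gate for sgStat5 against control, and neither passed (adjusted p = 0.775 and 1, and 0.401 and 0.939 with the block). Windows were found for 7 of the 10 genes, while Ccnd1, Ccnd2 and Rb1 had none and were not searched. No window of these 7 holds TTCNNNGAA, the palindrome STAT5 binds (8.3% of all windows do), or either E2F form searched, TTTCCCGC or TTTGGCGC (1.56% hold at least 1). With only 10 windows searched, the absence of letters this uncommon is no result about these genes. The FOXO form GTAAACA (3.65% of windows) is found once upstream of Ccnd3, at -243 of a start that was not counted, and CACGTG in a window of Cdkn2c, at 34. Both strands were searched.

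Cdkn1a encodes p21, an inhibitor of cyclin-CDK complexes that p53 induces, and lies at chr17:29093769-29100722 on the plus strand. In the late gate it had 48.6 and 31.7 CPM in sgStat5 libraries, against 87.3 and 80.6 CPM in controls. In the early gate it had 33.1 and 42.5 CPM in sgStat5 libraries, against 60.3 and 79.9 CPM in controls. All 4 sgStat5 libraries lay below all 4 control libraries. The late log2 fold change was -1.06 ± 0.24 (edgeR adjusted p = 0.105), and with the block -1.07 ± 0.21 (adjusted p = 0.0167). Without the filter on low counts it also passed (0.0218). The early one was -0.89 ± 0.24 (adjusted p = 0.369, and 0.0826 with the block). DESeq2 called Cdkn1a lower in both gates, with adjusted p = 0.000841 in the late and 0.0215 in the early gate.

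The RefSeq window at the upstream start of Cdkn1a is shown because it holds the paired core letters of a p53 response element, CATG and CATG with 6 bases between them, in capitals. This pattern was searched after the sequence had been seen, and 0.712% of all windows hold it. The window is on the plus strand, its start lies upstream of the start of the counted transcript, and the match begins at -48.
Cdkn1a chr17:29090729-29091028: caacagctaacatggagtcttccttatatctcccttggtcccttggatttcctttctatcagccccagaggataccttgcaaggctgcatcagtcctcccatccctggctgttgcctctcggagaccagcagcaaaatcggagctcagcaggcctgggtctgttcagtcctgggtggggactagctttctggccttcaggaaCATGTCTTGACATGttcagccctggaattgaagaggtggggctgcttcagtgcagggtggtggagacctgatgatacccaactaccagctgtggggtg

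Beside this, the p53 targets other than Cdkn1a had 14 tested members, of which 0 passed without the block in either gate. With the block 1 rose in the late gate, Trp53inp1 (log2 fold change 1.19, blocked adjusted p = 0.00585, and 0.448 without the block), a p53-induced stress protein, and 0 changed in the early gate. That is 1 of 14, beside the 8.22% of all genes called by that fit. The list median was 0.10 in the late and -0.13 in the early gate, beside -0.02 and -0.00 for all genes.

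Cdkn1b encodes p27, the inhibitor that FOXO factors induce when growth signals cease, and lies at chr6:134920401-134925525 on the plus strand. It had 92.7 and 68.1 CPM in late sgStat5 libraries, against 62.5 and 51.3 CPM in late controls, and 45.4 and 44.8 CPM in early sgStat5 libraries, against 32.1 and 37.3 CPM in early controls. The sgStat5 libraries stood above the controls of the same gate without overlap. The log2 fold change was 0.50 ± 0.18 in the late gate (adjusted p = 0.318, and 0.0819 with the block) and 0.38 ± 0.18 in the early gate (adjusted p = 0.834, and 0.344 with the block), so neither passed.

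The ratio of Cdkn1b to Cdkn1a in FPKM was 1.52 and 1.71 in late sgStat5 libraries, against 0.569 and 0.506 in late controls. In the early gate it was 1.09 and 0.838 in sgStat5 libraries, against 0.423 and 0.371 in controls. Every sgStat5 library lay above every control library, and p27 RNA exceeded p21 RNA in 3 of the 4 sgStat5 libraries and in 0 of the 4 control libraries. The summed CIP/KIP level was 40.5 ± 10.3 FPKM in late sgStat5 and 48.2 ± 4.30 FPKM in late control cells, and 27.7 ± 1.69 FPKM in early sgStat5 and 36.7 ± 7.15 FPKM in early control cells. This ratio is a description, chosen after the values of both genes were known.

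**Figure D3:**
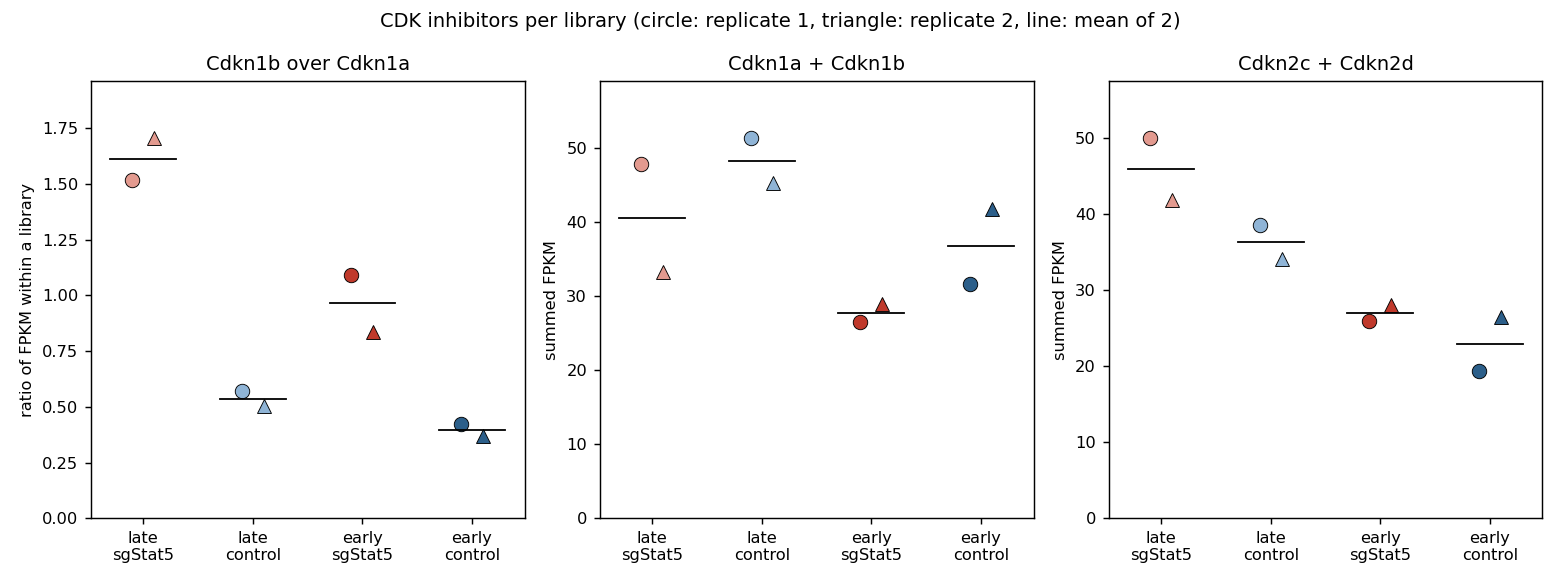
Ratio of Cdkn1b to Cdkn1a in deposited FPKM and the summed inhibitor levels in FPKM in the 8 libraries, 1 point per library, grouped as late sgStat5, late control, early sgStat5 and early control from left to right. All sgStat5 ratios, 0.838 to 1.71, lie above all control ratios, 0.371 to 0.569.

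The INK4 inhibitors block CDK4 and CDK6. Cdkn2d (chr9:21288464-21291209, minus strand) had 46.5 and 37.1 CPM in late sgStat5 libraries, against 34.8 and 28.9 CPM in late controls, and 23.9 and 26.2 CPM in early sgStat5 libraries, against 19.9 and 23.4 CPM in early controls. The sgStat5 values lay above the controls of the same gate, and the log2 fold changes of 0.39 ± 0.17 and 0.21 ± 0.17 did not pass (adjusted p = 0.410 and 0.971, and 0.190 and 0.671 with the block). Cdkn2c (chr4:109660876-109666756, minus strand) had 61.5 and 55.6 CPM in late sgStat5 libraries, against 54.1 and 51.3 CPM in late controls, and 34.0 and 38.7 CPM in early sgStat5 libraries, against 24.2 and 36.3 CPM in early controls. Its groups were separate in the late gate and overlapped in the early gate, with log2 fold changes of 0.15 ± 0.19 and 0.26 ± 0.20. Neither passed (adjusted p = 0.834 and 0.955).

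Rb1 (chr14:73195502-73325822, minus strand), whose protein holds E2F factors in check, had 45.7 and 42.0 CPM in late sgStat5 libraries, against 51.5 and 45.5 CPM in late controls, and 45.8 and 33.7 CPM in early sgStat5 libraries, against 35.4 and 39.7 CPM in early controls. Both pairs of groups overlapped. The log2 fold changes were -0.15 (95% interval -0.55 to 0.26) and 0.08 (-0.32 to 0.49).

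**Figure D4:**
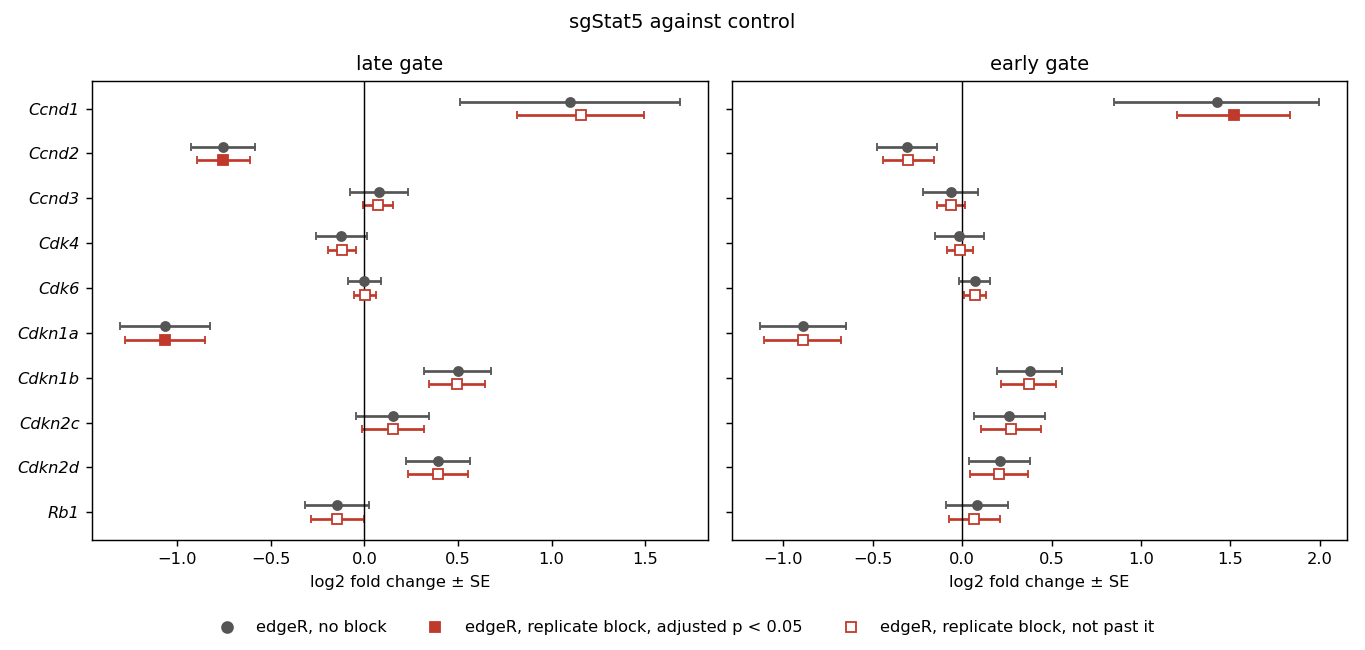
Log2 fold change of sgStat5 against control for the 10 genes in the late gate (left) and the early gate (right), with bars of 1 SE, from edgeR without and with the replicate block. Cdkn1a lies below 0 in both panels, at -1.06 and -0.89 without the block, and Cdk6 lies at -0.00 and 0.07.

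Whether the sgStat5 effect differed between the gates was tested directly. The difference of log2 fold changes, late minus early, ran from -0.45 for Ccnd2 to 0.18 for Cdkn2d, and 0 of the 10 genes passed, with an unadjusted p of at least 0.101. Of all genes 0% passed with or without the block (302 at an unadjusted p under 0.05, and 2 with DESeq2). A call in the late gate and none in the early gate therefore does not show that the gates differ.

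Between the gates the inhibitors p27 and p18 were higher in late cells in both arms in the blocked fit and in DESeq2, and Ccnd1 was lower in both arms in the blocked fit and in sgStat5 cells in DESeq2. Without the block 0 of the 10 genes passed in sgStat5 cells, where 0.973% of all genes passed, and 0 in control cells, where 0.0145% passed. At an unadjusted p under 0.05 there were 4 and 5 of the 10, beside 3305 and 2049 of all genes. The blocked fit called 6 of 10 in sgStat5 cells beside 22.8% of all genes, and 4 of 10 in control cells beside 10.9%. DESeq2 called 4 and 2, beside 1684 and 578 of all genes, and limma on the FPKM values 0 and 0. The gate comparisons use the same libraries as the sgStat5 comparisons, so they are not independent of them.

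Ccnd1 had 6.01 and 12.4 CPM in late sgStat5 cells, against 32.2 and 33.7 CPM in early sgStat5 cells, and 1.91 and 6.68 CPM in late control cells, against 9.09 and 15.5 CPM in early control cells. The late libraries lay below the early ones in both arms. The blocked log2 fold change was -1.96 ± 0.32 in sgStat5 cells (edgeR adjusted p = 0.00383, and 0.127 without the block) and -1.60 ± 0.34 in control cells (0.0201, and 0.309 without the block). Without the block, Ccnd2 had -0.19 ± 0.17 in sgStat5 cells and 0.26 ± 0.17 in control cells, and Ccnd3 had 0.12 ± 0.15 in sgStat5 cells and -0.02 ± 0.15 in control cells. Neither was called in either fit.

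Cdkn1b stood at 92.7 and 68.1 CPM in late sgStat5 cells, against 45.4 and 44.8 CPM in early sgStat5 cells. The blocked log2 fold change was 0.82 ± 0.15 in sgStat5 cells (adjusted p = 0.00579, and 0.0726 without the block) and 0.70 ± 0.15 in control cells (0.0224, and 0.213 without the block). With the block Cdkn2c rose by 0.69 ± 0.17 in sgStat5 cells (0.0180, and 0.107 without the block) and by 0.81 ± 0.17 in control cells (0.0187, and 0.213 without the block). Late and early libraries did not overlap for either inhibitor in either arm. Cdkn2d passed in sgStat5 cells, at 0.73 ± 0.16 (0.0123, and 0.0803 without the block), and not in control cells, at 0.55 ± 0.16 (0.0607 with the block); this does not show that the arms differ. For Cdkn1a the blocked fit gave 0.08 ± 0.22 in sgStat5 cells and 0.26 ± 0.21 in control cells, with blocked adjusted p of 0.814 and 0.473.

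The log2 fold changes of the kinases were small and of opposite sign, and not all passed. With the block Cdk6 rose by 0.20 ± 0.06 in sgStat5 cells (blocked adjusted p = 0.0424, and 0.219 without the block) and by 0.27 ± 0.06 in control cells (0.0244, and 0.264 without the block). Cdk4 passed in sgStat5 cells, at -0.32 ± 0.07 (0.0158, and 0.223 without the block). In control cells Cdk4 had -0.21 ± 0.07 (0.104) and did not pass, and its late and early libraries overlapped. Rb1 had 0.15 ± 0.14 and 0.36 ± 0.14, with blocked adjusted p of 0.480 and 0.138. Summed over the INK4 pair, late sgStat5 libraries had 50.0 and 41.9 FPKM against 26.0 and 28.0 FPKM in early sgStat5 libraries, and late control libraries 38.6 and 34.1 FPKM against 19.4 and 26.4 FPKM in early control libraries. Late and early libraries did not overlap.

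**Figure D5:**
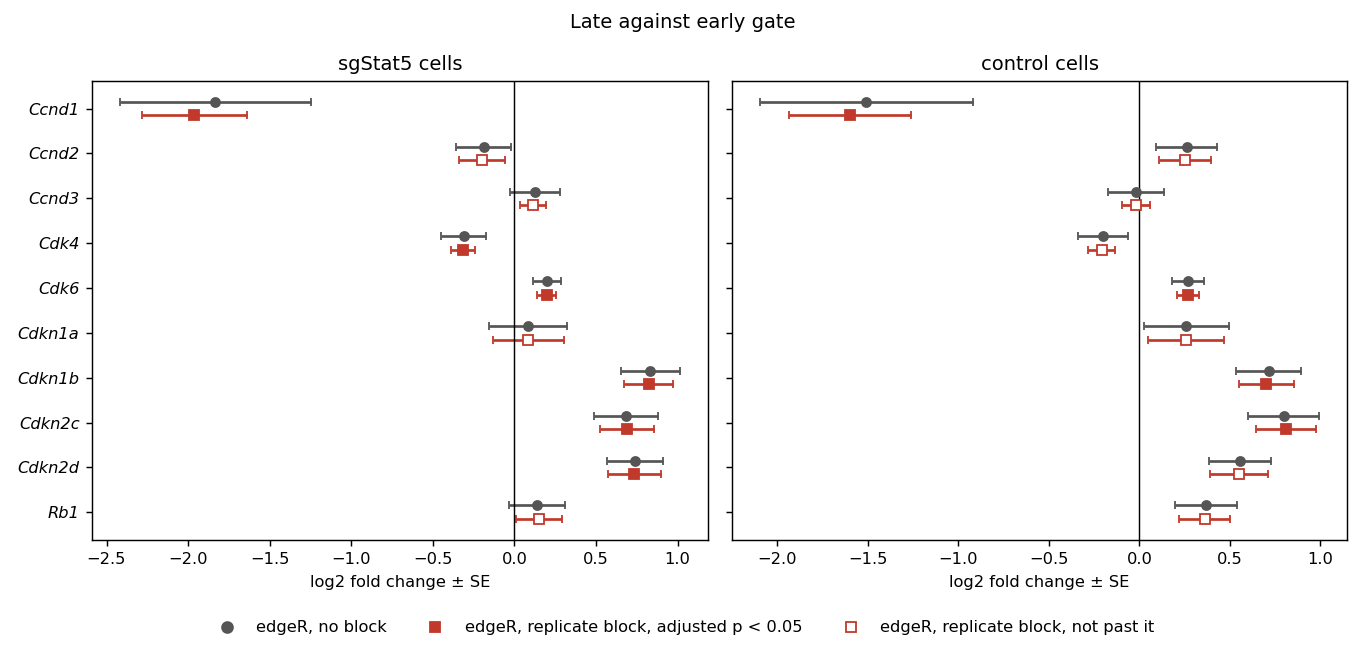
Log2 fold change of the late against the early gate for the 10 genes in sgStat5 cells (left) and control cells (right), with bars of 1 SE, from edgeR without and with the replicate block. Cdkn1b, Cdkn2c and Cdkn2d lie to the right of 0 and Ccnd1 to the left in both panels.

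Each of the 13 blocked calls was lost when at least 1 library of its comparison was left out. Ccnd2 in the late gate passed without control replicate 2 (adjusted p = 0.00777) and missed without control replicate 1 (0.0920), sgStat5 replicate 1 (0.0547) or sgStat5 replicate 2 (0.115). Cdkn1a in the late gate passed without sgStat5 replicate 1 (0.00487) and missed without sgStat5 replicate 2 (0.0835), control replicate 1 (0.0975) or control replicate 2 (0.0532). Ccnd1 in the early gate passed without sgStat5 replicate 2 (0.0102) and missed without sgStat5 replicate 1 (0.284), control replicate 1 (0.359) or control replicate 2 (0.242), and its log2 fold change without sgStat5 replicate 1 was 0.93. No direction turned among these 3.

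For the gate difference, Ccnd1 in sgStat5 cells missed only without late sgStat5 replicate 1 (adjusted p = 0.0579). In control cells Ccnd1 passed only without late control replicate 2 (0.00631), and missed at 0.162 without late control replicate 1, 0.146 without early control replicate 1 and 0.0662 without early control replicate 2. The inhibitors missed without either library of replicate 1 and passed without either library of replicate 2. In sgStat5 cells, without late and early replicate 1 in that order, Cdkn1b had 0.0720 and 0.0563, Cdkn2c 0.170 and 0.109, and Cdkn2d 0.127 and 0.111. In control cells Cdkn1b had 0.221 and 0.300 and Cdkn2c 0.199 and 0.229. Cdk4 in sgStat5 cells passed only without early sgStat5 replicate 2 (0.0238), and missed at 0.164 without late replicate 1, 0.0707 without late replicate 2 and 0.164 without early replicate 1. Cdk6 missed in sgStat5 cells without each library (0.115 to 0.281), and in control cells passed only without late control replicate 2 (0.0478), with 0.257 without late replicate 1, 0.135 without early replicate 1 and 0.117 without early replicate 2.

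Across the 8 libraries Ccnd2 and Cdkn1a had similar patterns, with Pearson's r of 0.906 on the log2 CPM scale. The 3 inhibitors that were higher in the late gate also went together, with r of 0.989 for Cdkn1b and Cdkn2d, 0.916 for Cdkn1b and Cdkn2c and 0.936 for Cdkn2c and Cdkn2d. With these 3, Cdk6 had r of 0.735 to 0.806 and Cdk4 of -0.831 to -0.65. The genes of both sets were singled out for shifts in these same libraries. Their r therefore restates those shifts in part and is no added result. Of all tested genes, the 3 most like Ccnd2 were Epb41l4b (0.984), S1pr4 (0.967) and Ino80c (0.956), those most like Cdkn1a were Larp4b (0.980), Orai1 (0.973) and Jarid2 (0.955), and those most like Ccnd3 were Zcchc14, Rgs4 and Apba1 (0.972 each). These coefficients describe 8 libraries that share groups and replicate numbers. The neighbours were picked as the highest of all tested genes, and over 8 libraries such picking alone can give high values. Ccnd3, whose groups all overlapped, also had neighbours at 0.972. The neighbours are therefore listed as a description and not as a test.

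The genes around these 10 were read from lists, and their blocked counts stand beside 8.22% of all genes called in the late and 2.33% in the early gate, so 1 or 2 calls in a list are no result about that list. Of 10 tested upstream regulators of D cyclins and p27, 1 rose and 1 fell in late sgStat5 cells without the block. Of all genes 1.71% passed in that fit, and with the block 2 of the 10 rose and 1 fell. Bcl6, a transcriptional repressor known to act on Ccnd2 in B cells, averaged 19.1 ± 3.69 CPM in late sgStat5 and 2.73 ± 0.561 CPM in late control cells (log2 fold change 2.80 ± 0.32, edgeR adjusted p = 0.00904). Pim1, a kinase gene that STAT5 induces, averaged 234 ± 29.1 CPM in late sgStat5 and 347 ± 6.62 CPM in late control cells (-0.57 ± 0.10, adjusted p = 0.0472). With the block Foxo1, an inducer of p27, also rose (0.85 ± 0.21, adjusted p = 0.0368, and 0.190 without the block). In early sgStat5 cells 0 passed without the block and Bcl6 rose with it (1.64 ± 0.27, adjusted p = 0.0167).

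Downstream of RB1, 0 of 18 E2F-controlled S-phase genes passed in either gate without the block. With it 2 fell in late sgStat5 cells, the replication licensing gene Mcm3 (-0.27, adjusted p = 0.0303, and 0.175 without the block) and the ribonucleotide reductase gene Rrm1 (-0.24, 0.0468, and 0.343), and 0 changed in the early gate. The median of the 18 was -0.15 in the late gate and -0.03 in the early gate, beside -0.02 and -0.00 for all genes. Of 10 E2F and DP factors 2 rose in late sgStat5 cells with the block, Tfdp2 (0.43, adjusted p = 0.0307, and 0.383 without it) and E2f2 (0.62, 0.0413, and 0.525), and 0 in the early gate. Of 9 genes of cyclin E, CDK2 and their activators 1 fell in late sgStat5 cells with the block, the phosphatase gene Cdc25a (-0.29, 0.0459, and 0.173 without it), and 0 in the early gate. None of the 6 tested genes for D-cyclin degradation and none of the 3 tested further inhibitors and pocket proteins passed in either gate in either fit.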

How the data were processed

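RNA was measured in 8 bulk libraries, grouped by the labels alone. Tools in the submitters' processing notes are STAR 2.4.0, RSEM 1.2.25 and bcl2fastq 1.8.4, with the build GRCm38/mm10. Per the file headers, the authors' deposited counts are raw tags over exons of 1 transcript per gene from HOMER analyzeRepeats, and the deposited FPKM values come from the same program, scaled by transcript length and library tags. Coordinates are mm10, counted from 1.

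Counts were tested here with edgeR 4.0.16 in R 4.3.3 (filterByExpr, TMM, quasi-likelihood F-test, two-sided, 4 group means over 8 libraries). Benjamini-Hochberg adjustment ran over 13775 genes within each of 5 comparisons, with a threshold of 0.05. SE was taken as the absolute log2 fold change over the root of F. Whether replicates were separate cultures or animals is not labelled, so p-values cover only the spread among these libraries. Besides Xist, the Y-linked gene Kdm5d differed between the numbers, at 48.5 to 63.5 CPM in replicate 1 and 15.4 to 25.3 CPM in replicate 2. Replicates 1 and 2 were therefore not repeats of the same cell material, and how many animals each holds is not stated. Deviations of same-numbered replicates from their group means correlated between groups across genes (6 coefficients, 0.421 to 0.578), so the numbers were taken to pair the libraries and the replicate number was also fitted as a block. Common dispersion was 0.0853 without and 0.0178 with it, and residual degrees of freedom were 4 and 3. The scripts were tested on simulated data.

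Alternatives were RLE scaling, no filter, DESeq2 1.42.0, limma 3.58.1 on log2(FPKM + 1) and log2(FPKM + 0.1), the block, and leaving out each library. All 10 genes were named in every comparison, and of other lists those past the threshold in a sgStat5 comparison, up to 5 per list, without the block and then with it. The genes most like Ccnd1 in pattern are not reported here. The genes, lists and tests were chosen with earlier results of these data known.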

Additional observations from a re-analysis of the deposited data

How the results depend on the processing

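Of 300 log2 fold changes of the 10 genes under other settings, 268 kept their direction and their side of the threshold, 26 passed newly, and 6 changed sign. The 6 were Cdk6 for sgStat5 in the late gate, -0.00014 as reported, with 0.011 under RLE scaling and under DESeq2, 0.0018 without the filter on low counts, 0.0014 with the replicate block, and 0.060 and 0.061 with limma on log2(FPKM + 1) and log2(FPKM + 0.1). Numbers of genes called depended on the fit. For sgStat5 in the late gate 235 were called as reported, 629 with DESeq2 and 1132 with the block, and in the early gate 37, with 114 without the filter, 247 with DESeq2 and 321 with the block. For the difference between the gates 0 were called and 2 with DESeq2. For late against early sgStat5 cells 134 were called, 760 without the filter, 1684 with DESeq2 and 3144 with the block, and for control cells 2, with 83, 578 and 1507 under the same settings and 0 with limma on log2(FPKM + 1). Of the 10 genes 0 were called as reported in each comparison. For sgStat5 in the late gate 2 were called without the filter, with DESeq2 and with the block, and in the early gate 1 with DESeq2 and 1 with the block. For late against early sgStat5 cells 2, 4 and 6 were called without the filter, with DESeq2 and with the block, and for control cells 2 and 4 with DESeq2 and the block. The cause was not tested. The block followed the replicate pairing and turned no direction other than that of Cdk6 above. With each library left out in turn, which leaves 1 library in a group that is assumed to vary like the others, the unblocked fit called 58 to 102 genes in the late gate, 0 to 15 in the early gate, 0 for late against early sgStat5 cells and 0 to 2 for control cells, and 0 of the 10 genes in each. With the block, left-out libraries (chosen after seeing the data) gave 385 to 699, 94 to 242, 836 to 2630 and 87 to 1702 genes in the same order, 0 to 6 for the difference, and 0 to 2, 0 to 1, 0 to 5 and 0 to 4 of the 10 genes. Of 240 fold changes without a library 204 kept direction and call and 36 changed sign. Lowest and highest log2 values, late sgStat5 against control, were -0.13 and 0.28 for Ccnd3, -0.28 and 0.056 for Cdk4, and -0.064 and 0.067 for Cdk6. In the early gate they were -0.18 and 0.040 for Ccnd3, -0.11 and 0.067 for Cdk4, -0.014 and 0.14 for Cdk6, -0.013 and 0.59 for Cdkn2c, and -0.16 and 0.29 for Rb1. For the difference they were -0.95 and 0.85 for Ccnd1, -0.070 and 0.35 for Ccnd3, -0.27 and 0.071 for Cdk4, -0.13 and 0.014 for Cdk6, -0.49 and 0.10 for Cdkn1a, -0.096 and 0.33 for Cdkn1b, -0.43 and 0.18 for Cdkn2c, and -0.43 and 0.010 for Rb1. For the late gate against the early they were -0.087 and 0.32 for Ccnd3, -0.24 and 0.36 for Cdkn1a and -0.068 and 0.38 for Rb1 in sgStat5 cells, and -0.15 and 0.098 for Ccnd3 in control cells.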
